A study of Mus musculus with 60 samples.

Results

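The genes described here are 10 markers of the pyramidal cells of the hippocampal CA fields, out of 35976 gene symbols in the deposited count table. They were taken by name. Wfs1, Fibcd1, Man1a, Pou3f1 and Spink8 are used as markers of CA1, Amigo2 and Rgs14 as markers of CA2, and Bok, Cpne4 and Iyd as markers of CA3. All 10 were in the table, all 10 had reads in each of the 60 libraries, and all 10 passed the filter on low counts in each comparison.

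RNA of the whole hippocampus was sequenced after depletion of ribosomal RNA in NLGF mice and in wild-type (WT) mice at 3, 8 and 24 weeks of age, with 5 samples labelled female and 5 labelled male per genotype and age. NLGF is a knock-in line in which the mouse App gene itself carries mutations of familial Alzheimer's disease, so its own promoter drives it and no transgene is added. WT mice carry no such allele. The labels give no strain. Whether the 5 samples of a group are 5 animals is not stated, so each p-value is set against a sample-to-sample spread that can include technical noise.

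The CA fields are successive stretches of 1 sheet of excitatory pyramidal neurons. Granule cells of the dentate gyrus send mossy fibres to CA3, CA3 axons reach CA1, and CA1 sends the output on to the subiculum, while CA2 lies between CA3 and CA1 and takes part in social memory. Each field keeps its own set of genes in adult life, and such genes are used to draw the borders of the fields. In RNA of a whole tissue, fewer cells of a field and less RNA per cell cannot be told apart, and no library here holds 1 field alone.

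Library totals lay between 17.8 and 73.4 M counts, with a median of 26.1 M. Of the 10 NLGF libraries of week 3, 7 were deeper (54.0 to 73.4 M) than the other 53 libraries of the series (17.8 to 35.2 M), and no WT library was of that kind. App, the mutated gene, averaged 1622 ± 109, 1645 ± 76.4 and 1621 ± 101 CPM in NLGF over weeks 3, 8 and 24, and 1713 ± 86.1, 1888 ± 233 and 1741 ± 61.1 CPM in WT (SD, n = 10 libraries each). Gene counts do not show the mutations themselves. At week 3, 1 NLGF library labelled male did not match its sex label by its counts, and at week 8, 1 NLGF library labelled female has an age field of 3 weeks against a title of week 8. Both were kept under their titles, and with either left out 0 members passed between the genotypes at any age, as with it. Of the tissue itself, 7 genes of pyramidal cells of all fields summed to 5764 to 10879 CPM and 11 markers of dentate granule cells to 454 to 1248 CPM, and no marker of either list was at 0 in a whole group.

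The level of a gene is given as CPM, the count scaled to 1 M of the library total after TMM scaling. To compare genes with each other, CPM was divided by the exon length in kb. On that scale Wfs1, which encodes the endoplasmic reticulum protein wolframin, had a median of 36.6 CPM per kb over the 60 libraries. Fibcd1, a membrane receptor that binds acetylated sugars, had 35.9 CPM per kb. These CA1 genes were followed by Bok with 22.1, Cpne4 with 18.3, Rgs14 with 18.0 and Pou3f1 with 15.9 CPM per kb. Man1a with 8.20, Spink8 with 7.60, Amigo2 with 5.64 and Iyd with 1.89 CPM per kb came last. Of the 9 pairs of neighbours in this order, 6 had means closer than the larger of their SDs over libraries, among them Wfs1 (40.5 ± 14.2 CPM per kb) and Fibcd1 (37.3 ± 10.1 CPM per kb, SD, n = 60). The other 3 were farther apart than that: Fibcd1 and Bok (23.5 ± 8.95 CPM per kb), Pou3f1 (16.7 ± 4.26) and Man1a (8.21 ± 1.44), and Amigo2 (5.75 ± 1.55) and Iyd (2.14 ± 1.09).

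On mm10 (GENCODE vM21), Wfs1 lies on chromosome 5 from 36966104 to 36989205, Fibcd1 on chromosome 2 from 31813290 to 31846005, Man1a on chromosome 10 from 53904785 to 54076609, Pou3f1 on chromosome 4 from 124656807 to 124660655, and Spink8 on chromosome 9 from 109812280 to 109826633. Amigo2 lies on chromosome 15 from 97244125 to 97247287 and Rgs14 on chromosome 13 from 55369732 to 55384687. Of the CA3 genes, Bok lies on chromosome 1 from 93685660 to 93695764, Cpne4 on chromosome 9 from 104547286 to 105034544, and Iyd on chromosome 10 from 3540240 to 3554877. All 10 are protein-coding.

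The span over libraries was wide for genes of 1 dissected tissue. In CPM, Wfs1 ranged from 71.9 to 312 with a median of 139, and Fibcd1 from 78.9 to 319 with a median of 171. Man1a, a mannosidase that trims N-glycans in the Golgi, ranged from 52.99 to 113 CPM, the smallest highest-over-lowest ratio of the 10 (2.14). Pou3f1, a POU domain transcription factor, ranged from 28.2 to 102 CPM, and Spink8, a member of the Kazal type peptidase inhibitor family, from 2.95 to 10.8 CPM.

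Of the CA2 genes, Amigo2, a leucine-rich repeat adhesion protein of the cell membrane, ranged from 7.24 to 29.8 CPM. Rgs14, a regulator of G protein signalling that limits synaptic potentiation in CA2 of mice, ranged from 43.4 to 161 CPM. Of the CA3 genes, Cpne4, a calcium-dependent phospholipid-binding copine, ranged from 56.6 to 147 CPM, and Bok, a member of the BCL-2 family, from 15.8 to 97.2 CPM. Iyd, which encodes iodotyrosine deiodinase, an enzyme best known for recovering iodide in the thyroid, ranged from 0.243 to 7.56 CPM. Iyd rested on 6 to 323 counts per library, the fewest of the 10, while each other member had at least 65 counts in every library.

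The spread among libraries of the same genotype, age and sex was large beside that of other genes. On the log2 scale, the within-group SD was 0.64 for Iyd, 0.54 for Bok, 0.48 for Wfs1, 0.42 for Amigo2, 0.41 for Fibcd1, 0.38 for Pou3f1, 0.37 for Spink8, 0.35 for Rgs14, 0.30 for Cpne4 and 0.25 for Man1a. The median was 0.19 over the 14503 genes that averaged 1 CPM or more. Of the members, 7 lay at or above the 90.1 percentile of these genes, Rgs14 lay at 88.5, Cpne4 at 81.7 and Man1a at 71.5.

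**Figure D1:**
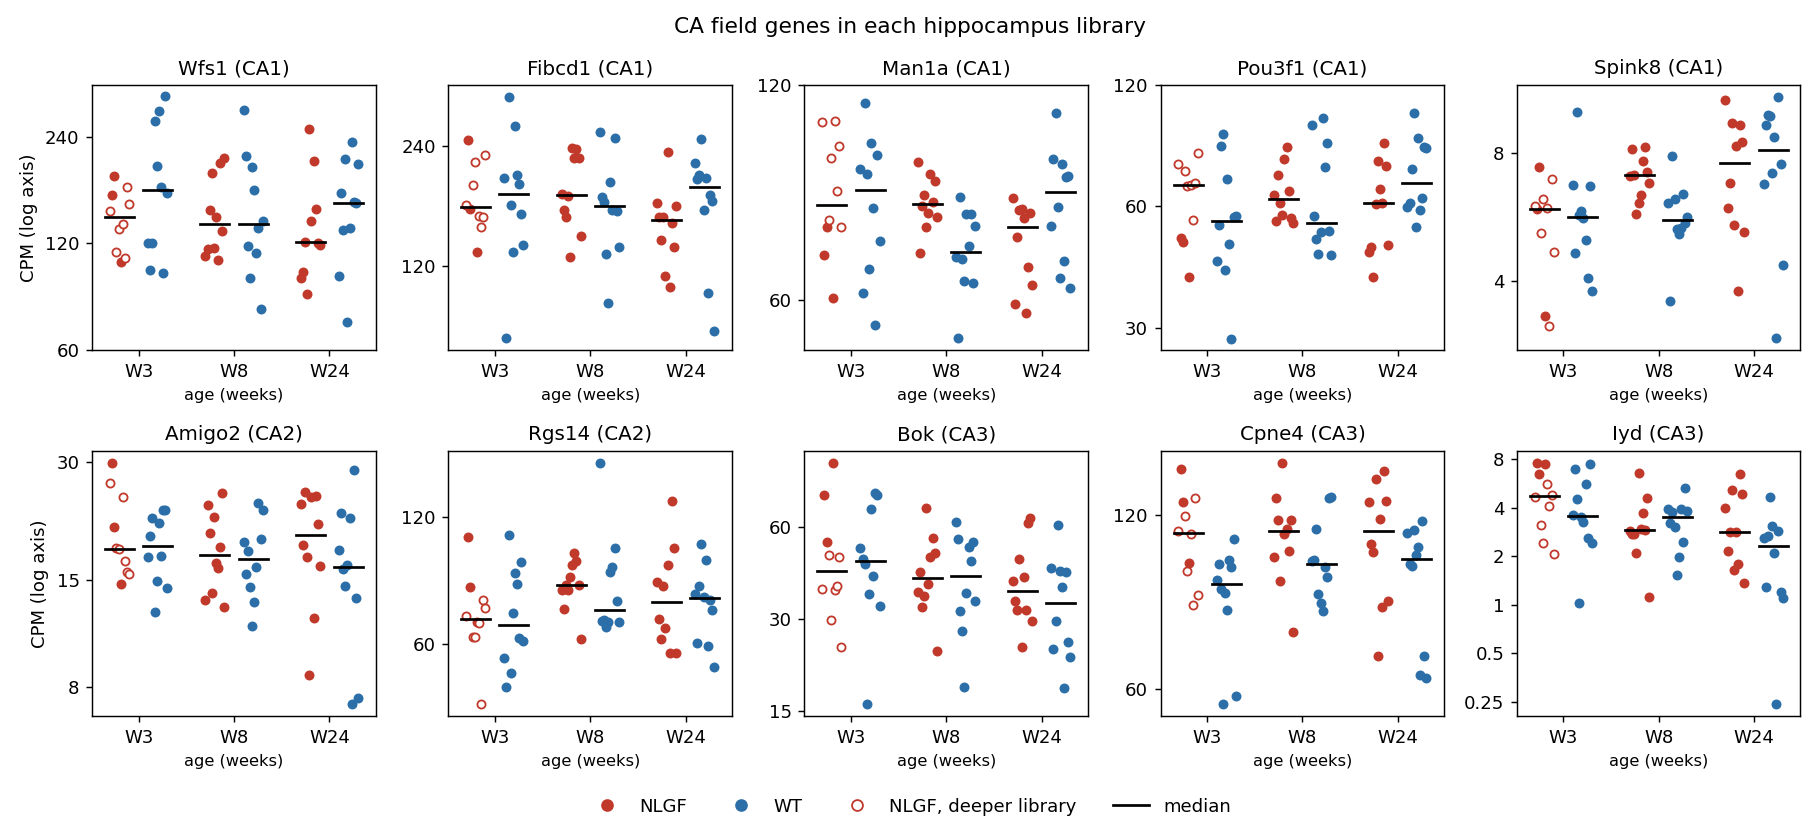
CPM of the 10 CA field genes in each library, on a log axis with its own range for each gene, by age in weeks and genotype, with NLGF left of WT. Points are libraries, open circles the 7 deeper NLGF libraries of week 3, and bars medians of 10 libraries. The ranges of NLGF and WT overlap for each gene at each age, and Iyd spans 0.243 to 7.56 CPM.

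The first comparison asked whether the CA field genes differ between NLGF and WT at each age, the comparison the series was designed for. None of the 10 passed at any age. At week 3, 0 of 10 members passed in edgeR's quasi-likelihood test at an adjusted p under 0.05, against 3.78% of the 16605 genes tested. At week 8, 0 of 10 members passed, against 0% of 16494 genes. At week 24, 0 of 10 members passed, against 0.878% of 16508 genes. At an unadjusted p under 0.05 there were 1, 2 and 0 members at weeks 3, 8 and 24, against 22.0%, 7.83% and 8.99% of all genes, and DESeq2 also called 0 members at each age. The members' median log2 fold change was 0.02, 0.05 and 0.01 at the 3 ages, and that of all genes tested was 0.01, -0.01 and -0.00. In the authors' deposited table of genes called between the genotypes, which lists 2628 genes at week 3, 4 at week 8 and 156 at week 24, 0 of the members are listed at any age.

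Cpne4 had the smallest p-value at week 3. Its level ran from 83.8 to 144 CPM in NLGF with a median of 112, and from 56.6 to 109 CPM in WT with a median of 91.0. In 8 of the 10 NLGF libraries it was above the WT median, and the ranges overlapped. The log2 fold change was 0.33 ± 0.116 (SE, adjusted p = 0.104). Wfs1 ran from 106 to 186 CPM in NLGF with a median of 142, and from 98.7 to 312 CPM in WT with a median of 170. Its log2 fold change was -0.37 ± 0.205 (adjusted p = 0.299), and 4 WT libraries (198 to 312 CPM) stood above all NLGF libraries.

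At week 3, Bok, Iyd and Pou3f1 were set apart by the kind of library within NLGF. Bok stood at 24.3 to 48.6 CPM in the 7 deeper NLGF libraries, at 53.5, 76.1 and 97.2 CPM in the 3 other NLGF libraries, and at 15.8 to 77.8 CPM in WT. Iyd stood at 2.07 to 5.57 CPM in the deeper NLGF libraries, at 6.45, 7.46 and 7.56 CPM in the 3 others, and at 1.02 to 7.46 CPM in WT. Neither gene overlapped between the 2 kinds of NLGF library. Pou3f1 went the other way, with 55.7 to 81.3 CPM in the deeper libraries and 40.1, 48.9 and 50.1 CPM in the others. For these 3 of 10 members the 2 kinds did not overlap, and the same held for 18.0% of 14503 genes, while the third CA3 gene, Cpne4, overlapped (83.8 to 128 CPM in the deeper libraries and 99.2 to 144 CPM in the others). With the 3 other NLGF libraries alone, NLGF over WT gave log2 fold changes of 0.72 ± 0.321 for Bok (adjusted p = 0.426), 0.83 ± 0.408 for Iyd (adjusted p = 0.458) and 0.49 ± 0.177 for Cpne4 (adjusted p = 0.370). With the 7 deeper libraries as the NLGF group, it was -0.40 ± 0.246 for Bok (adjusted p = 0.274), -0.15 ± 0.316 for Iyd (adjusted p = 0.789) and 0.25 ± 0.127 for Cpne4 (adjusted p = 0.184). The direction at week 3 turned with the libraries used for 5 of 10 members, and the share of all genes was not counted. Beside Bok and Iyd the members were Pou3f1 (0.28 with the deeper libraries and -0.36 with the 3 others), Man1a (0.13 and -0.29) and Rgs14 (-0.19 and 0.26). With the 7 deeper libraries 0 of 10 members passed, against 21.5% of genes, and with the 3 others 0 of 10, against 0%. Markers of choroid plexus also spread widely at this age: 8 such genes summed to 345 to 15358 CPM in NLGF and 229 to 6330 CPM in WT, and their part in these values was not tested.

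At week 8 the smallest p-values belonged to CA1 genes. Man1a ran from 69.8 to 93.7 CPM in NLGF with a median of 81.8, and from 52.99 to 83.7 CPM in WT with a median of 70.1. Spink8 ran from 5.76 to 8.24 CPM in NLGF, so that all 10 NLGF libraries stood above the WT median of 5.57 CPM, and from 3.61 to 7.86 CPM in WT. Such a count need not go with a rise, since all 10 also stood above the WT median for Pou3f1, at -0.03 ± 0.141. The log2 fold changes were 0.21 ± 0.0730 for Man1a and 0.29 ± 0.109 for Spink8, both with an adjusted p = 0.633. The other 8 members lay between -0.06 and 0.11 on the log2 scale.

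At week 24 the CA1 genes Pou3f1, Man1a, Fibcd1 and Wfs1 had log2 fold changes of -0.26 ± 0.140, -0.20 ± 0.0981, -0.19 ± 0.172 and -0.15 ± 0.212, with adjusted p from 0.574 to 0.864. Spink8 stood at -0.06 ± 0.209. The CA3 genes had positive values, 0.67 ± 0.367 for Iyd (adjusted p = 0.608), 0.24 ± 0.145 for Cpne4 and 0.23 ± 0.225 for Bok. Amigo2 and Rgs14 of CA2 stood at 0.21 ± 0.240 and 0.08 ± 0.153. None of these passed. Iyd ran from 1.37 to 6.50 CPM in NLGF with a median of 2.83, and from 0.243 to 4.66 CPM in WT with a median of 2.32. Man1a ran from 57.6 to 83.2 CPM in NLGF, and all 10 values were below the WT median of 85.0 CPM, within a WT range of 62.2 to 110 CPM. In the same libraries 6 of 8 microglia markers were higher in NLGF, among them Trem2 (log2 fold change 1.18 ± 0.0656, adjusted p = 1.82e-10), a receptor of microglia that gather at plaques. In all 30 sets of 1 member and 1 age the ranges of NLGF and WT overlapped, whereas 0.0483%, 0% and 0.324% of 14503 genes did not overlap at weeks 3, 8 and 24.

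**Figure D2:**
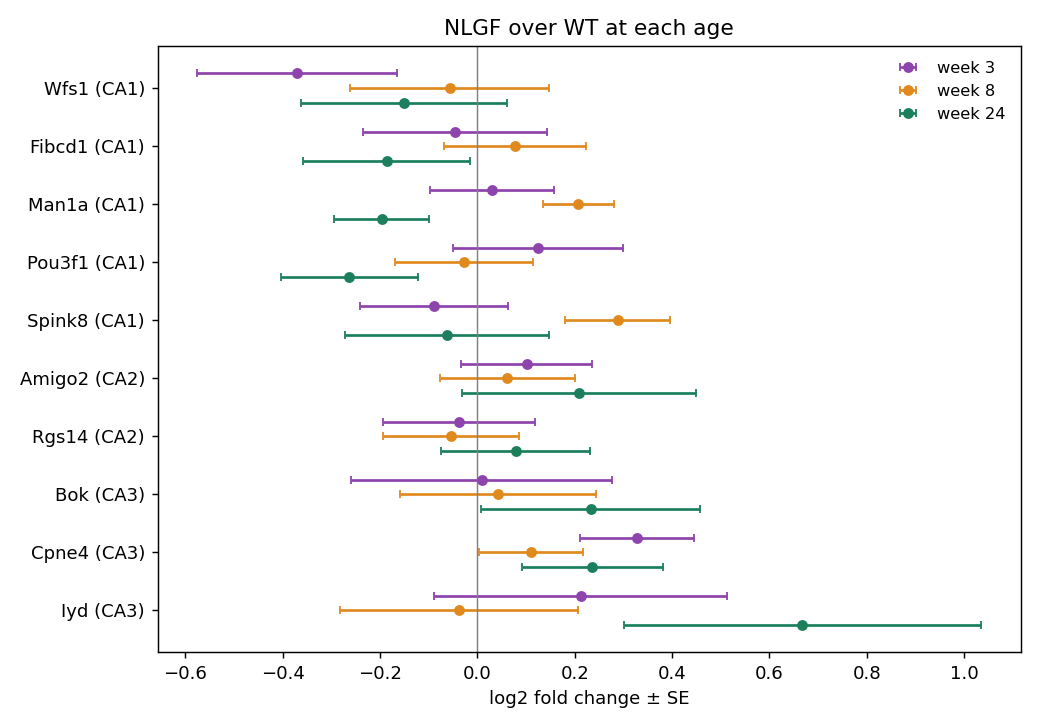
Log2 fold change of NLGF over WT for each CA field gene at week 3, week 8 and week 24 (points) with its standard error (bars), from edgeR. None passed an adjusted p under 0.05, and Iyd at week 24 lies farthest from 0 with 0.67 ± 0.367.

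Other genes of the same fields were read beside the members. Of 6 other CA1 markers, 11 other CA2 markers and 9 other CA3 markers, 0 passed in either direction at weeks 3, 8 or 24. At week 24 the medians of their log2 fold changes were -0.28 for CA1, 0.03 for CA2 (10 genes tested) and 0.07 for CA3. Of 7 genes expressed by pyramidal cells of all fields, Neurod2, a transcription factor of differentiated excitatory neurons, was higher in NLGF at week 3 (0.28 ± 0.0720, adjusted p = 0.0378), and 0 passed at weeks 8 and 24. Without the 7 deeper libraries Neurod2 did not pass (0.20 ± 0.0933, adjusted p = 0.435), nor did any other gene. Of 11 dentate granule cell markers 0 passed at any age.

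The genotype effect was then compared between ages in 1 fit of all 60 libraries. Between weeks 8 and 3, 0 of 10 members passed, against 0.180% of 17752 genes. Between weeks 24 and 8, 0 of 10 members passed, against 0.310%. Between weeks 24 and 3, 0 of 10 members passed, against 1.15%. The member with the smallest p-value in the last of these was Pou3f1, whose log2 fold change at week 24 minus that at week 3 was -0.38 ± 0.228 (adjusted p = 0.474). At an unadjusted p under 0.05 there were 0, 1 and 0 members in the 3 comparisons, against 7.26%, 3.85% and 13.5% of genes, and DESeq2 called 0 in each. Male over female gave 0 of 10 members passed, against 0.101% of genes, in edgeR's quasi-likelihood test, with 0 at an unadjusted p under 0.05 (4.16% of genes) and 0 in DESeq2. The farthest from 0 was Spink8 with -0.19 ± 0.0961 (adjusted p = 0.982).

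Change with age asked whether the fields' marker levels shift as the juvenile hippocampus matures. Most members did not pass. Between weeks 8 and 3, 0 of 10 members passed in NLGF, against 10.4% of 17391 genes, and 0 of 10 in WT, against 7.14% of 16844 genes. Between weeks 24 and 8, 0 of 10 members passed in NLGF, against 1.90%, and 0 of 10 in WT, against 0.279%. At an unadjusted p under 0.05 there were 1 and 2 members in NLGF in these comparisons, against 23.3% and 12.2% of genes, and 0 and 1 in WT, against 20.1% and 11.5%. DESeq2 called 0 members in each. Between weeks 24 and 3, 1 of 10 members passed in NLGF, against 25.7% of genes, and 1 of 10 in WT, against 21.9%.

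Spink8 rose in NLGF and Iyd fell in WT. Spink8 ran from 3.81 to 10.6 CPM at week 24 in NLGF with a median of 7.55, and from 3.14 to 7.42 CPM at week 3 with a median of 5.92. The log2 fold change was 0.44 ± 0.154 (adjusted p = 0.0353). In WT it ran from 2.95 to 10.8 CPM at week 24 with a median of 8.12, and from 3.81 to 9.95 CPM at week 3 with a median of 5.67, and the log2 fold change was 0.41 ± 0.173 (adjusted p = 0.0891). The change in NLGF minus that in WT was 0.03 ± 0.235 (adjusted p = 0.973), so a difference between genotypes was not detected. In both genotypes the ranges of the 2 ages overlapped.

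Iyd ran from 0.243 to 4.66 CPM at week 24 in WT with a median of 2.32, and from 1.02 to 7.46 CPM at week 3 with a median of 3.56. The log2 fold change was -0.94 ± 0.333 (adjusted p = 0.0416). In NLGF it ran from 1.37 to 6.50 CPM at week 24, and from 2.07 to 7.56 CPM at week 3, with a log2 fold change of -0.51 ± 0.295 (adjusted p = 0.214). The change in NLGF minus that in WT was 0.45 ± 0.456 (adjusted p = 0.720). Both calls were close to the threshold. With no filter on low counts neither passed (adjusted p = 0.0618 for Spink8 and 0.0865 for Iyd). With each library left out in turn, Spink8 passed in 21 of 30 fits in NLGF (adjusted p 0.00872 to 0.0870) and Iyd in 20 of 30 fits in WT (adjusted p 0.0118 to 0.0892). Without the WT week 24 library male 2, where Iyd had 6 counts, its log2 fold change was -0.80 (adjusted p = 0.0591).

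Without the 7 deeper libraries, Bok and Iyd fell with age in NLGF and Spink8 did not pass, so that 2 of 10 members passed at week 24 over week 3, against 28.0% of genes. Bok then had a log2 fold change of -0.93 ± 0.265 (adjusted p = 0.0123), Iyd -1.12 ± 0.397 (adjusted p = 0.0402) and Spink8 0.42 ± 0.241 (adjusted p = 0.204). At week 8 over week 3, Bok had -0.83 (adjusted p = 0.0402) and was the 1 member of 10 that passed, against 14.6% of genes. These fits rest on 3 NLGF libraries at week 3. With all libraries, Bok had -0.26 ± 0.224 in NLGF (adjusted p = 0.428) and -0.48 ± 0.252 in WT (adjusted p = 0.180) at week 24 over week 3. Cpne4, the third CA3 gene, stood at 0.01 ± 0.121 in NLGF and 0.10 ± 0.128 in WT.

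Among the CA1 genes, Man1a had -0.23 ± 0.0888 in NLGF (adjusted p = 0.0596) and -0.00 ± 0.116 in WT at week 24 over week 3, and Pou3f1 had -0.04 ± 0.128 in NLGF and 0.34 ± 0.186 in WT (adjusted p = 0.205). Without the 7 deeper libraries the NLGF values turned sign, to 0.08 ± 0.105 for Man1a (adjusted p = 0.595) and 0.35 ± 0.184 for Pou3f1 (adjusted p = 0.164). Wfs1 and Fibcd1 had -0.03 ± 0.172 and -0.24 ± 0.134 in NLGF, and -0.25 ± 0.249 and -0.08 ± 0.211 in WT. The CA2 genes lay between -0.14 and 0.18 in both genotypes.

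**Figure D3:**
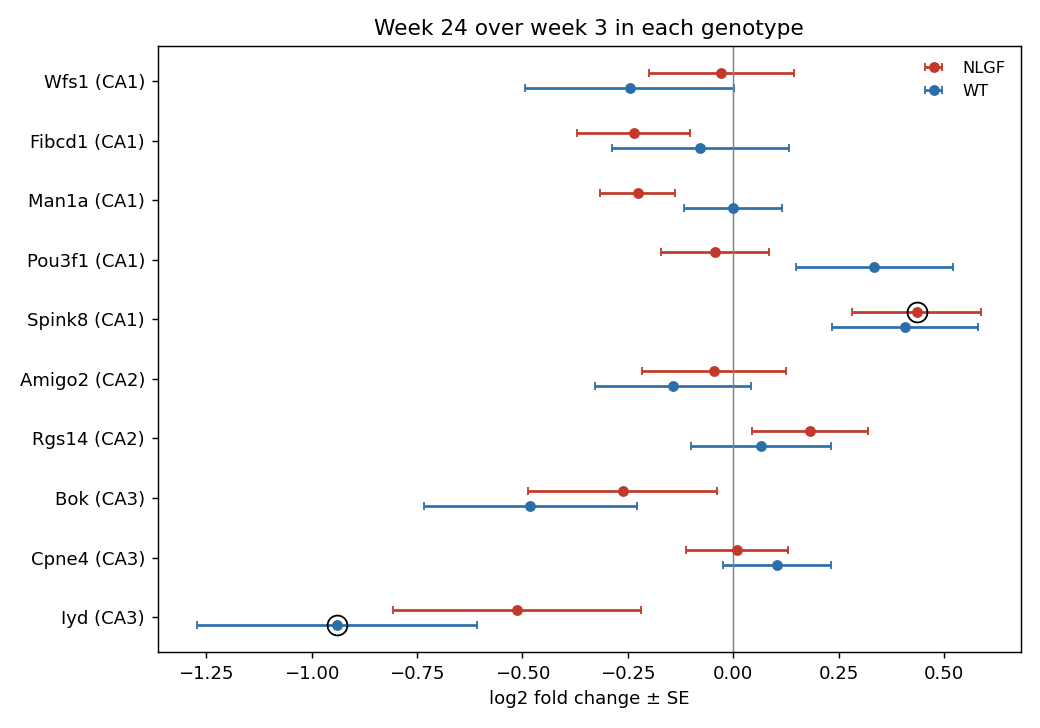
Log2 fold change of week 24 over week 3 for each CA field gene in NLGF and in WT (points) with its standard error (bars), from edgeR. Black rings mark the 2 values with an adjusted p under 0.05, Spink8 in NLGF at 0.44 and Iyd in WT at -0.94.

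Beside these changes, all 7 oligodendrocyte markers were lower at week 24 than at week 3 in both genotypes, with a median log2 fold change of -1.31 in NLGF and -1.63 in WT, and their part in the members' values was not tested. Of the other field markers, 0 of 6 CA1, 2 of 11 CA2 and 0 of 9 CA3 genes changed in NLGF, both CA2 genes falling. They were Vcan, the matrix proteoglycan versican (-0.56 ± 0.0891), and Adcy6, an adenylyl cyclase (-0.24 ± 0.0691). Without the 7 deeper libraries both still fell, and 0 CA1 genes passed. Of the 9 CA3 genes, 1 then rose, Elavl2 (0.33 ± 0.111), and 1 fell, Grik4 (-0.53 ± 0.170). In WT, 1 of 6 CA1 genes rose, Mpped1 (0.32 ± 0.105), 3 of 11 CA2 genes fell, among them Vcan (-0.49 ± 0.101), and 1 of 9 CA3 genes fell, Csf2rb2 (-0.46 ± 0.153). Of the 7 genes of pyramidal cells of all fields, 3 fell in NLGF and 0 in WT. They were Camk4 (-0.50 ± 0.0687), a calmodulin-dependent kinase, Slc17a7 (-0.30 ± 0.0784), the vesicular glutamate transporter VGLUT1, and Nrgn (-0.24 ± 0.0845), neurogranin. Without the 7 deeper libraries 3 of the 7 fell, Camk4 and Slc17a7 among them, while Nrgn stood at -0.16 ± 0.118. For the genotype effect at week 24 minus that at week 3, in the fit of all 60 libraries, 0 of these 7 genes passed. Their median there was -0.14, so a difference between genotypes was not detected for them. Of 8 microglia markers, 6 rose in NLGF, and their part in the members' values was not tested either.

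The members did not vary independently of each other. For each library the deviation of log2(CPM + 0.5) from the mean of its genotype, age and sex group was taken, and the 45 pairs of members were correlated over the 60 libraries with a 2-sided permutation test within groups (100000 resamples), adjusted over the 45 pairs. Of these pairs, 26 passed, 23 with a positive and 3 with a negative r. Correlation of this size was common among all genes. An r of at least 0.30 in size, just under the smallest that passed, was met by 27 of the 45 pairs of members and by 31.5% of all pairs of the 14503 genes that averaged 1 CPM or more. Of the members' pairs, 24 had an r of 0.30 or more and 3 of -0.30 or less, and of all pairs 16.3% and 15.3%. Pairs of 1 field passed in 10 of 14 cases, all positive, with a median r of 0.45. Pairs of different fields passed in 16 of 31 cases, 3 of them negative, with a median r of 0.27.

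The CA3 genes varied together, with an r that 1.05% of all pairs of genes reached (at least 0.69). Cpne4 and Iyd had r = 0.82 and rho = 0.81, Bok and Iyd r = 0.80 and rho = 0.77, and Bok and Cpne4 r = 0.70 and rho = 0.68. All 6 of these had a permutation p = 1e-05, the smallest that the resamples can give (adjusted p = 9e-05 for each r), and r was 0.82, 0.77 and 0.71 without the 2 libraries farthest from the median of Cpne4 in the first pair and of Bok in the others. Single libraries show the size of this. The library NLGF W8 female 5 had 147 CPM of Cpne4, 69.2 CPM of Bok and 6.56 CPM of Iyd, while NLGF W8 male 5 had 75.4, 23.6 and 1.11 CPM of these genes. In WT at week 24, male 2 had 63.5 CPM of Cpne4, 17.9 CPM of Bok and 0.243 CPM of Iyd, and female 4 had 113, 61.0 and 4.66 CPM.

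Both CA2 genes passed with each of the 3 CA3 genes. Amigo2 and Cpne4 had r = 0.75 (rho = 0.69, permutation p = 1e-05 for both), and r was 0.69 without the 2 farthest libraries. Rgs14 passed with Bok, Cpne4 and Iyd, with r of 0.56, 0.48 and 0.53. The CA2 genes with each other had r = 0.39 (rho = 0.36, permutation p = 0.00270 and 0.00890, adjusted p = 0.00579 and 0.0191).

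The CA1 genes did not form 1 set. Man1a and Spink8 had r = 0.66 (rho = 0.69, permutation p = 1e-05 for both), and r was 0.65 without the 2 farthest libraries. Fibcd1 passed with Spink8, Man1a and Pou3f1, with r of 0.52, 0.46 and 0.37. Wfs1 had r = -0.00 with Fibcd1 (rho = -0.03, permutation p = 0.978 and 0.813), although both are used as CA1 markers, and passed within CA1 with Pou3f1 alone (r = 0.44, rho = 0.34, permutation p = 0.00372 and 0.020, adjusted p = 0.00761 and 0.0391). Spink8 also passed with Amigo2, Rgs14, Cpne4 and Iyd, with r from 0.46 to 0.63, and Fibcd1 with Rgs14 had r = 0.61.

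Wfs1 had a negative r past the threshold with 3 of the 5 genes of the other fields. It was -0.37 with Cpne4 (rho = -0.35, permutation p = 0.00793 and 0.00870, adjusted p = 0.0155 and 0.0191), -0.33 with Amigo2 and -0.31 with Iyd. By rank the values for Amigo2 and Iyd did not pass (rho = -0.27 and -0.30, permutation test, adjusted p = 0.0795 and 0.0526). With Bok r was -0.24 and with Rgs14 0.15, and neither passed. Without the 2 libraries farthest from the median of Wfs1 the values were -0.24, -0.21 and -0.21. In NLGF at week 24, female 5 had 253 CPM of Wfs1 with 68.5 CPM of Cpne4 and 8.55 CPM of Amigo2, while female 4 had 86.1 CPM of Wfs1 with 138 and 17.2 CPM. Over the 53 libraries that remain without the deeper ones, 28 of the 45 pairs passed.

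**Figure D4:**
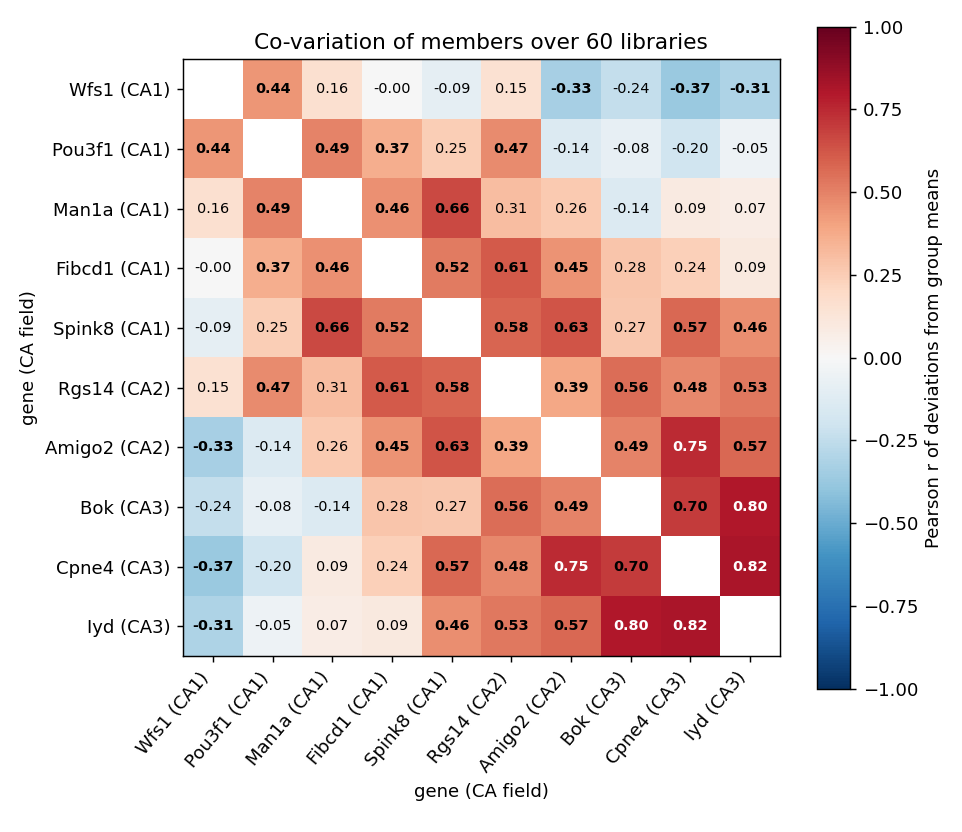
Pearson r between the members' deviations of log2(CPM + 0.5) from their group means over 60 libraries, from -1 (blue) to 1 (red), with genes on both axes in the order CA1, CA2, CA3. Numbers in bold are the 26 pairs that passed. Bok, Cpne4 and Iyd reach 0.70 to 0.82, and Wfs1 is negative with Amigo2, Cpne4 and Iyd.

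**Figure D5:**
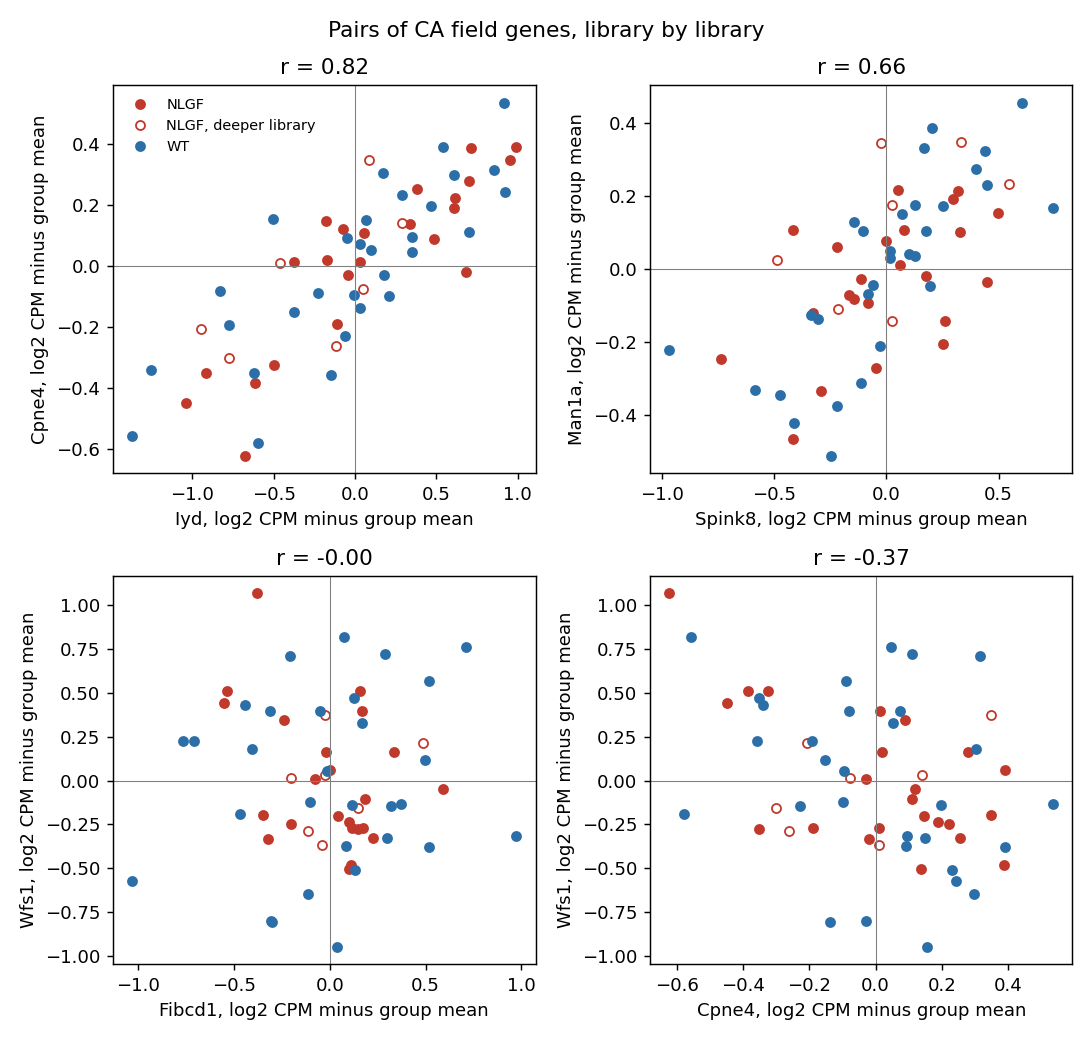
Deviations of log2(CPM + 0.5) from the group mean for 4 pairs, 1 point per library, in NLGF (red, open circles for the 7 deeper libraries) and WT (blue). Cpne4 follows Iyd (r = 0.82) and Man1a follows Spink8 (r = 0.66), whereas Wfs1 does not follow Fibcd1 (r = -0.00) and has a negative r with Cpne4 (r = -0.37).

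Upstream sequence is shown for the co-varying CA3 genes and for Wfs1 and Fibcd1, a pair of CA1 genes that did not co-vary with each other. A window was at hand for 7 of the 10 members, and each holds the 250 bases before a RefSeq gene start in GRCm38.p6. The windows of Bok (chr1:93685325-93685574, plus strand), Cpne4 (chr9:104569405-104569654, plus strand, the first of 2 starts), Iyd (chr10:3540024-3540273, plus strand), Wfs1 (chr5:36988983-36989232, minus strand) and Fibcd1 (chr2:31846006-31846255, minus strand) are written 5′ to 3′ on the strand of the gene. Capitals mark a match on either strand to TATAAA (the TATA box), GGGCGG (the GC box), CACGTG (the E-box) or TGACGTCA (the cAMP response element), and no match shown overlaps that of another motif.
Bok: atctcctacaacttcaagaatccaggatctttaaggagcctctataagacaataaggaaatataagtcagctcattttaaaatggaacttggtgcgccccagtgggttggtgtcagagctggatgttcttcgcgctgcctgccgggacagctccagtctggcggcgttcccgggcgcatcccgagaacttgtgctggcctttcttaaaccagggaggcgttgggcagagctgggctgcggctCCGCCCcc
Cpne4: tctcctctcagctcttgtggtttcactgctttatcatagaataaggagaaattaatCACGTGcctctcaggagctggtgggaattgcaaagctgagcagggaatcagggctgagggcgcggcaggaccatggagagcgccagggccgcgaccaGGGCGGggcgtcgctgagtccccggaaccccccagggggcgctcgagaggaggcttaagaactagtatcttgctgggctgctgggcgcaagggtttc
Iyd: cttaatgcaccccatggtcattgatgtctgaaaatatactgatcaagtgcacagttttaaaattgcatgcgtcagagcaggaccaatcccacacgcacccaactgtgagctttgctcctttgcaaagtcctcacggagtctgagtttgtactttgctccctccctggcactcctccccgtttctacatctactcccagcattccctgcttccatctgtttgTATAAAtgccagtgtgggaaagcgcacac
Wfs1: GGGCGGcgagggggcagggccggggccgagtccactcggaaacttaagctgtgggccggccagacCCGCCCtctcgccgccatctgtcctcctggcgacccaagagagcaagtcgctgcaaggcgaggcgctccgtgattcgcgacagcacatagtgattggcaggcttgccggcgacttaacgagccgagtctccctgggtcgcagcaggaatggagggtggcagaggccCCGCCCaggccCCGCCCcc
Fibcd1: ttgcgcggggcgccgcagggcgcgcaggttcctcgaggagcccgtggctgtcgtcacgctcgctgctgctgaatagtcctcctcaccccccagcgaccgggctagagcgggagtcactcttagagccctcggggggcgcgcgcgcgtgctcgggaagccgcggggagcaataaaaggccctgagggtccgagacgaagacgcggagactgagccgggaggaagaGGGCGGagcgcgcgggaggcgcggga
The CA3 genes did not share a motif of these across all 3 windows. Iyd held TATAAA, which 12.4% of 32851 such windows hold, and no GGGCGG. Bok and the Cpne4 window shown each held GGGCGG once, as 32.7% of all windows do at least once. That Cpne4 window also held CACGTG, which 6.02% hold. The window at the other start of Cpne4, not shown, held no match to any of the motifs. Wfs1 held GGGCGG 4 times and Fibcd1 once, and no window of a member held TGACGTCA (1.55% of all windows). The share of G and C was 55.2% for Bok, 59.6% for Cpne4, 48.4% for Iyd, 69.6% for Wfs1 and 71.6% for Fibcd1, against a median of 52.4% over all windows. A match in these letters is no evidence of a bound site.

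The other markers of the fields were then set against the members, in 140 relations of a member with the mean deviation of a list, adjusted over the 140 (permutation test within groups, added after the data were seen). The share of all genes that pass with each list was not computed, so the counts of members below have no background beside them. The 9 other CA3 markers passed with 6 members. Their r was 0.84 with Cpne4 (rho = 0.83), 0.71 with Amigo2, 0.60 with Iyd, 0.56 with Bok and 0.43 with Spink8, and -0.51 with Wfs1. The 11 other CA2 markers passed with 5 members, with r of 0.61 for Amigo2, 0.60 for Iyd, 0.50 for Cpne4, 0.39 for Spink8 and 0.37 for Man1a. Without the 7 deeper libraries Man1a did not pass with the CA2 markers (permutation test, adjusted p = 0.0553). Rgs14, itself used as a CA2 marker, passed neither with them (r = 0.16, adjusted p = 0.377 in the permutation test) nor with the other CA3 markers (r = 0.22, adjusted p = 0.205). The 7 genes of pyramidal cells of all fields passed with 5 members, all positive. Their r was 0.61 with Rgs14, 0.52 with Bok, 0.45 with Iyd, 0.43 with Pou3f1 and 0.40 with Cpne4. By single genes, Cpne4 had r = 0.80 with Nectin3, a cell adhesion protein, and Bok r = 0.82 with the cadherin Cdh24. Amigo2 had r = 0.81 with the zinc finger factor St18. Each was the highest r of the CA3 list for that member. Of the 9 CA3 markers, 6 passed with Cpne4 and 5 with Amigo2, all positive (permutation test, adjusted over 320 relations with single genes). With Bok 6 passed positive and 1 negative (r = -0.36). For Rgs14, 4 CA3 markers passed positive and 1 negative, and 3 CA2 markers positive and 1 negative.

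The 6 other CA1 markers passed with 6 members, all negative, and with none of Wfs1, Fibcd1, Man1a and Pou3f1. Their r was -0.78 with Iyd (rho = -0.80), -0.68 with Cpne4, -0.64 with Bok, -0.50 with Amigo2, -0.45 with Rgs14 and -0.37 with Spink8. By single genes, Mpped1 had r = 0.47 with Wfs1, -0.70 with Cpne4 and -0.72 with Iyd. Gpr161, a receptor of the primary cilium, had r = 0.64 with Fibcd1 and 0.67 with Pou3f1. Each of these, and Mpped1 with Wfs1, was the highest r of the list for that member. Of the 6 genes, 2 passed with Wfs1 and 3 with Pou3f1, all positive. With Fibcd1, 1 passed positive and 1 negative (r = -0.38).

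Markers of tissue beside the CA fields moved with the members as well. A list of 6 subiculum markers passed with 6 members and a list of 8 neocortex markers with 7, all negative, down to r = -0.63 with Iyd and r = -0.68 with Fibcd1. A list of 11 dentate granule cell markers passed with 6 members, all positive, up to r = 0.67 with Iyd. Interneuron markers passed with 4 members, all negative. The microglia and striatum lists passed with 0 members, the choroid plexus list with Man1a and Amigo2 (r = 0.38 and 0.39) and the oligodendrocyte list with Iyd (r = 0.35). Without the 7 deeper libraries, Man1a and Amigo2 did not pass with the choroid plexus list (permutation test, adjusted p = 0.0973 and 0.103). Nor did Iyd with the oligodendrocyte list (adjusted p = 0.101), Amigo2 with the granule cell list (0.0575) or Bok with the interneuron list (0.0821). Summed over 60 libraries the subiculum markers ran from 141 to 323 CPM, the neocortex markers from 284 to 704 CPM and the granule cell markers from 454 to 1248 CPM. Their part in the members' spread was not tested, and how many of all genes pass with these lists was not computed.

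Among 14493 other genes that averaged 1 CPM or more, the nearest to each member by Pearson r of the same deviations (n = 60 libraries, which share depth and dissection between genes) were taken, as a description. For Cpne4 they were Ptgs2 (r = 0.91) and Ccbe1 (0.88), for Iyd Cd109 (0.92) and Lats2 (0.84), and for Bok Gpc1 and Homer3 (both 0.87). For Amigo2 they were St18 (0.81) and Lpl (0.80), and for Rgs14 Adcy9 (0.87) and Fam131a (0.85). Pou3f1 was nearest to its family member Pou3f3 (0.86) and to Tbc1d1 (0.77). Wfs1 had the lowest values, 0.72 with Ogdhl and 0.65 with Asap1. Fibcd1 was nearest to St6galnac5 (0.82) and Lmo1 (0.80), Man1a to Zeb2 and Bbx (both 0.73), and Spink8 to Fam19a1 and Trim2 (both 0.84). An antisense gene of Pou3f1, Gm2164, shares 330 exon bases with it (8.6% of its exon length) and had r = 0.80. Without a stated strand setting, reads of this stretch cannot be told apart. Man1a shares 147 bases with Gm16998 and Amigo2 58 with Pced1b, and the other 7 members share none with another gene of the annotation.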

How the data were processed

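The authors deposited raw counts per gene symbol, 1 column for each of the 60 samples. The submitters' processing notes name FastQC, STAR, edgeR, DESeq2 and mm10 without versions, and how reads were counted, on which annotation and with which strand setting, is not stated in the labels or files. The authors also deposited their own genotype calls for weeks 3, 8 and 24, with a mean normalized signal, a log2 fold change, its standard error (taken here as a score) and p-values, per the file headers. These calls were used only to look up the members, and their adjusted p-values reach 0.0600, 0.0516 and 0.0583 at weeks 3, 8 and 24.

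From the counts, each comparison was fitted over all genes with edgeR 4.0.16 in R 4.3.3: filterByExpr with a minimum count of 10, TMM scaling, a robust quasi-likelihood F-test, 2-sided, and Benjamini-Hochberg adjustment at a threshold of 0.05. Sex was the covariate, as the series design states. Genotypes were compared within an age (20 libraries), ages within a genotype (30 libraries), and differences between ages and the sexes over all 60. Each standard error is the log2 fold change over the root of F. The fits of genotypes at week 24 and of ages in WT were tested on simulated counts, with the same spread set for all genes. Correlations used Python 3.11.15 and deviations of log2(CPM + 0.5) from the 12 group means.

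The members and gene lists were chosen with earlier results of these data known. Named genes are the members, up to 4 called genes of each list by p-value, and the 2 nearest genes of each member, with unnamed gene models passed over (Gm2164 is named for its overlap). Alternatives were RLE scaling, DESeq2 1.42.0, no filter, a filter of 1 CPM in 10 samples, no sex term, each sex alone, all 60 samples in 1 fit, a replicate block, each library left out, and fits with and without the deeper or mislabelled libraries. Whether equal replicate numbers mark shared animals is not in the labels. Among 120 pairs of libraries of a group none agreed within sampling noise (smallest chi-square per gene 6.56). Counts per library bound the counting error, and Iyd had the fewest, down to 6. 1 relation of a listed marker is not reported here.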

Additional observations from a re-analysis of the deposited data

Results flagged for a closer look

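Within groups of 5 libraries, 9 values of members stood far from the other 4, by the gap to the nearest one relative to the group's range. There were 120 such groups, and chance marks about 1 in 20 of them. In NLGF at week 8, female 5 had 69.2 CPM of Bok, with the other females at 33.0 to 42.6 CPM, and 6.56 CPM of Iyd, with the others at 2.08 to 2.88 CPM. Bok and Iyd co-vary over all libraries (r = 0.80). In WT at week 8, female 1 had 161 CPM of Rgs14, with the others at 65.8 to 68.6 CPM, and 95.5 CPM of Pou3f1, with the others at 45.8 to 56.8 CPM. In WT at week 3, female 4 had 56.6 CPM of Cpne4, with the others at 87.8 to 98.8 CPM.

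Of the CA1 genes, Wfs1 reached 253 CPM in NLGF week 24 female 5, with the others at 86.1 to 121 CPM, and Fibcd1 stood at 142 CPM in NLGF week 8 male 5, with the others at 224 to 237 CPM. Of the CA2 genes, Amigo2 had 24.4 CPM in NLGF week 3 male 2, which did not match its sex label, with the others at 14.7 to 16.7 CPM. Rgs14 had 43.4 CPM in NLGF week 3 male 3, with the others at 67.3 to 76.7 CPM. No cause of these values was tested.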

How the results depend on the processing

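For members passing between the genotypes, between ages in the genotype effect and between the sexes, the count of 0 held under each alternative and with each library left out. At week 24 over week 3 in WT the count of members was 1, and 0 with no filter on low counts and 0 with a replicate block for sex and number. With each library left out it lay between 0 and 1 there. In NLGF the count was 1, and 2 with DESeq2 (Man1a and Spink8), 0 with no filter, 2 without the 7 deeper libraries (Bok and Iyd), and 0 to 2 with each library left out. At week 8 over week 3 in NLGF it was 0, and 1 (Bok) without the deeper libraries. The cause of these changes was not tested. The block left the other counts of members as they were, but not the members behind each of them. With it Spink8 did not pass at week 24 over week 3 in NLGF (0.42, adjusted p = 0.0655 in the quasi-likelihood test), and Man1a passed in its place. The block could not be fitted for male over female, since sex lies within it. Of 30 pairs of equal replicate number in NLGF and WT, 13 had a correlation of deviations above 0.1, with a range of -0.24 to 0.58. No pairs of unequal number are set beside them, so these values do not decide whether the numbers pair the samples.

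Co-variation gave 26 passing pairs, and 24 to 28 with each library left out. Of 5790 recomputed values of members, 5726 kept their side of the threshold, 24 no longer passed and 11 newly passed. The remaining 29 passed in neither form and changed sign by more than the standard error of the main fit. Size was compared only where the sign changed, so the 5726 include values of quite different size. The sign changed in 301, none of which passed in either form, among them 22 of 80 without the 7 deeper libraries. Of 2790 recomputed pairs the counts were 2730, 40, 18 and 2, with 27 changes of sign. For pairs a fixed shift in r took the place of the standard error.

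Counts over all genes moved more. For NLGF over WT at week 3 they were 628, against 1480 with DESeq2, 1904 with all 60 samples in 1 fit, 351 with no filter, 165 (51 higher) with the block, 190 (42 higher) in females alone, 6 in males alone, 3671 with only the deeper NLGF libraries, 0 without these and 257 without the library of conflicting sex. The count of 628 held 278 higher genes. At week 24 they were 145, against 224 with DESeq2, 44 in females alone and 37 in males alone, and at week 8, 0 against 1 with DESeq2. At week 24 over week 8 in WT they were 47 (6 higher), against 110 (37 higher) with DESeq2 and 29 with the block. For the genotype effect, week 8 minus week 3 gave 32, against 80 with DESeq2, 21 with no filter, 122 with the block, 0 without the deeper libraries and 11 without the library of conflicting sex. Week 24 minus week 3 gave 204, against 308 with DESeq2, 124 with no filter and 15 without the deeper libraries.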
